A study of Mus musculus with 6 samples.

Results

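The connexins and pannexins, the proteins that build gap junctions and large membrane channels, were examined in the RNA of mouse Sertoli cells that lack Pa1. Their 7 members, the connexin genes Gja1, Gja4, Gja5, Gjb2, Gjb5 and Gjc1 and the pannexin gene Panx1, were taken by gene name from a count table of 28262 genes. All 7 were listed, and 5 of them passed the filter on low counts and were tested. Another 13 genes of the family were listed in the same table and served for comparison.

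The 6 libraries came from Sertoli cells isolated from C57BL/6 mice at 20 days of age, cultured and otherwise untreated. The 3 control libraries carry Pa1F/F (PA1flox/flox in the labels), the floxed alleles without deletion. The 3 knockout libraries, labelled PA1-/- and named Amh-pa1-/- in the study, carry the same floxed alleles with Amh-cre, a Cre recombinase under the promoter of Amh, a gene of Sertoli cells, so the deletion is meant for these cells and not for other cells of the preparation. PA1 is a nuclear protein associated with a histone methyltransferase complex, and the comparison asks which genes depend on it. Pa1 transcripts were not analysed here, and genotypes are those of the labels. The methods call the libraries biological replicates, but no label ties them to single animals or says how many testes were pooled, so p-values measure the spread between these samples.

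A connexin hexamer makes a hemichannel in the cell membrane, and hemichannels of neighbouring cells dock into a gap junction channel that passes ions and small molecules. Pannexins form channels of a similar build that mostly stay undocked and release ATP. In the testis connexin43, the product of Gja1, joins Sertoli cells to each other and to germ cells at and near the blood-testis barrier, and its loss from Sertoli cells is known to stop spermatogenesis.

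Gja1 and Gjb2 were the members with lower counts in every knockout library than in any control, and the DNA just upstream of their starts is shown for that reason. The sequences are the 250 bases before the RefSeq start on the GRCm38.p6 build, Gja1 at chr10:56377050-56377299 on the plus strand and Gjb2 at chr14:57104703-57104952 on the minus strand. Capitals mark the AP-1 letters TGANTCA in Gja1, the kind of site that JUN and FOS proteins bind, and the GC box letters GGGCGG, on either strand, in Gjb2.
Gja1: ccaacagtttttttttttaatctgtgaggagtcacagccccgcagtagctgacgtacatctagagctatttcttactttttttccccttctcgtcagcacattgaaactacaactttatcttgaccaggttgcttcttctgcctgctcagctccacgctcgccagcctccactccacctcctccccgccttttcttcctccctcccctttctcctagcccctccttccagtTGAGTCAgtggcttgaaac
Gjb2: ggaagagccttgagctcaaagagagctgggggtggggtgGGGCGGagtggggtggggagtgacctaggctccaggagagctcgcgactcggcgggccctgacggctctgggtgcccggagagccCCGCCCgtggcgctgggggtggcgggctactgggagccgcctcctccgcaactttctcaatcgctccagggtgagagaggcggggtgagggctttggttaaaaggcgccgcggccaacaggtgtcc

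The AP-1 match of Gja1, TGAGTCA, lay 19 bases before the start at chr10:56377281-56377287. Windows of 300 bases, from 250 before to 50 after a start, were matched for 11 of the 20 listed family genes, and Gja1 was the 1 gene among them with the AP-1 letters. The same letters stood in 7.81% of 32851 promoter windows of the genome. The GC box letters of Gjb2 began 211 and 126 bases before its start, and they stood in 35.7% of all windows. The window of Gja1 held neither these nor the SOX letters AACAAT, which 10.7% of windows held. A match of letters is a description and says nothing of binding.

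The study also measured Gja1 by RT-qPCR, and its primers show which stretch of the transcript that assay reads. In capitals and in full as designed, each 5′ to 3′, they are
forward: TTTCATTGGGGGAAAGGCGT
reverse: GCAGACTGTTCATCACCCCA
On the GRCm39 build the forward primer matched chr10:56253454-56253473 in exon 1 of 2, which is not coding, and the reverse primer matched chr10:56263775-56263794 in the coding part of exon 2. They span 326 bases of a transcript of 4700 bases, whereas the sequencing counts reads along the whole gene.

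Total counts per library lay between 13203757 and 16231443, and a count of 3, taken as the floor that a count of 0 allows, equalled 2.72 to 3.38 normalized counts. Normalized counts are counts divided by the library's TMM-scaled total and multiplied by the mean total. Of 15 Sertoli cell markers 13 were tested, among them Sox9, Wt1 and Dhh at 3172 to 6084 normalized counts, while Rhox5 and Trf, also Sertoli genes, stayed at or below 15.5 in every library. Of these 13 markers, 4 were lower in the knockout cells, namely Inha (log2 fold change -1.23), Gata4 (-0.88), Clu (-0.69), which was the most abundant, and Aard (-0.27). Cst9 (2.85) and Cst12 (0.25) were higher. The 7 others tested did not pass, among them Sox9 (edgeR adjusted p = 0.613), Wt1 (0.449) and Dhh (0.978). The 15 listed summed to 251689 to 256391 in control and 154733 to 198036 in knockout cells. Clu made up most of each sum, at 192489 to 194105 in control and 105693 to 146325 in knockout cells. These were the libraries in which Gja1 was lower, and the part of such changes in the level of Gja1 was not tested. In bulk RNA, fewer cells of a type and less RNA per cell cannot be told apart. In each genotype 1 library stood apart. Pa1F/F replicate 2 differed from the other controls by 0.47 and 0.475 (root mean square of log2 CPM over tested genes), against 0.267 between those. Amh-pa1-/- replicate 3 differed by 0.563 and 0.567, against 0.285. Results that rest on these libraries are given with and without them.

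Of the 5 tested members, 2 were lower in the knockout cells and 0 higher at an adjusted p under 0.05 (edgeR's quasi-likelihood test, Benjamini-Hochberg over 14919 genes). Of all tested genes 35.3% passed this test, 17.1% lower and 18.2% higher, so a call in itself is common in these data. The lower members were Gja1 and Gjb2, but Gjb2 entered the test only through the control group, where it is high, so its call is given as a description and Gja1 alone is read against the background. Both called members also changed by at least 2-fold, as did 12% of all genes, 6.56% downwards and 5.44% upwards. Gja4 and Gjb5 were below the filter and have no test.

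**Figure D1:**
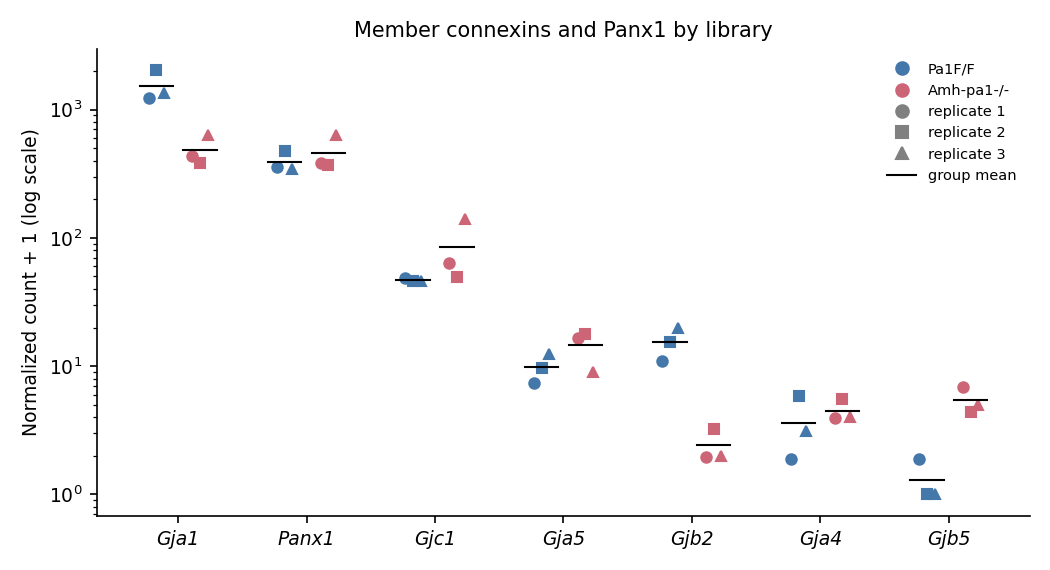
Normalized counts plus 1 (vertical axis, log scale) of the 7 members in each of the 3 Pa1F/F (blue) and 3 Amh-pa1-/- (red) libraries, with a shape for each replicate number and a line at the group mean. Gja1 and Gjb2 are lower in every knockout library than in any control library, and Amh-pa1-/- replicate 3 is the highest knockout library for Gja1, Panx1 and Gjc1.

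Gja1 (ENSMUSG00000050953, chr10:56377330-56402513, plus strand, GRCm38) encodes connexin43. It stood at 1226, 2015 and 1352 normalized counts in Pa1F/F replicates 1, 2 and 3, and at 437, 379 and 632 in Amh-pa1-/- replicates 1, 2 and 3. The groups did not overlap, as was so for 52.4% of all tested genes, and the library closest to the other group was Amh-pa1-/- replicate 3. The means were 1531 ± 424 in control and 483 ± 133 in knockout cells (SD, n = 3 each), a 3.17-fold lower level. The log2 fold change was -1.66 (SE 0.25, edgeR adjusted p = 0.00336). It was -1.42 without Pa1F/F replicate 2, the highest library, and -1.90 without Amh-pa1-/- replicate 3. A test against a change of 2-fold, in place of no change, was not passed (edgeR glmTreat adjusted p = 0.099).

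Some marker genes of other testicular cells were lower in the same libraries as Gja1. Of 3 tested Leydig cell markers all 3 were lower, and the 7 listed summed to 11679 to 13399 normalized counts in control and 2423 to 4230.3 in knockout cells. These sums were made up of Star, Cyp11a1 and Hsd3b1, genes of steroid synthesis, while Insl3 and Cyp17a1, which define Leydig cells, stayed at or below 2.9 in every library. Of 8 tested macrophage markers 6 were lower, beside 17.1% of all tested genes. Adgre1, Ptprc and C1qc among them had 2 to 7 counts in the knockout libraries and passed the filter only through the control group. The count of 6 is therefore a description. Lyz2, lysozyme, stood at 363 to 550.0 in control and 24.4 to 85.2 in knockout cells, and the 11 listed markers summed to 1829 to 2019.8 and 1117 to 1367. Mrc1, the most abundant of them, was not lower, at 945 to 1022 in control and 932 to 1216 in knockout cells (log2 fold change 0.17, edgeR adjusted p = 0.254). Cx3cr1 and Cd163, markers of resident macrophages, stayed at or below 7.25. The part of these cells in the level of Gja1 was not tested.

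Gjb2 (ENSMUSG00000046352, chr14:57098600-57104702, minus strand) encodes connexin26, a channel protein of epithelia. It had 11, 15 and 18 counts in the control libraries and 1, 2 and 1 in the knockout libraries, so it passed the filter only through the control group. All knockout libraries lay at or under the floor and all controls above it. Summed over the libraries of each genotype, 44 against 4 counts gave a ratio of 10.4 of control over knockout after scaling (exact 95% interval 3.77 to 39.7, counting error only). The edgeR adjusted p of 0.00377 is therefore not taken as support, and in the fit of all 28262 genes with no filter on low counts it was 0.00264. Without Pa1F/F replicate 2, or with a minimum of 10 counts in every library, the gene was not tested. Of the stratified epithelial markers Krt14, Trp63 and Dsg3 were at or below 4.88 normalized counts in every library.

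Gjc1 (ENSMUSG00000034520, chr11:102799579-102819700, minus strand) encodes connexin45, known from conducting heart tissue and smooth muscle. It stood at 48, 45.5 and 45.1 normalized counts in the control libraries and at 62.5, 48.4 and 138 in the knockout libraries. Every knockout library was above every control library, but replicate 2 only just, and replicate 3 was far above the rest. The log2 fold change of 0.85 (SE 0.39) did not pass (edgeR adjusted p = 0.138), and without Amh-pa1-/- replicate 3 it was 0.27 (adjusted p = 0.318).

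Panx1, pannexin1, is the channel through which many cells release ATP. It stood at 353, 472 and 343 normalized counts in the control libraries and at 383, 369.5 and 627 in the knockout libraries. The groups overlapped, with Pa1F/F replicate 2 and Amh-pa1-/- replicate 3 the highest of their groups. The log2 fold change was 0.24 (SE 0.23, edgeR adjusted p = 0.462), and without Amh-pa1-/- replicate 3 it was -0.05 (adjusted p = 0.823).

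The library that raised the mean of both genes also had the highest counts of several contractile cell markers, though not of all. Myh11, smooth muscle myosin, stood at 1605 normalized counts in Amh-pa1-/- replicate 3 and at 164 to 649 in the other libraries, and Des, desmin, at 485 and 43.9 to 139. Cnn1, calponin, stood at 421 there and at 24.8 to 65 elsewhere. Smtn was lowest there among the knockout libraries, at 1085 against 1165 and 1246, and Tagln was at or below 14 in every library. Of 6 tested peritubular myoid markers 2, Acta2 and Smtn, were higher in the knockout cells and 0 lower. The 7 listed summed to 3651 to 4706 in control and 13626 to 19967 in knockout cells. Acta2 made up most of each sum, at 2537 to 3239 in control and 11886 to 15383 in knockout cells. In Amh-pa1-/- replicates 1 and 2, Myh11 (216 and 164) and Actg2 (66.4 and 51.8) lay below every control. Those controls stood at 481 to 649 for Myh11 and 124 to 183 for Actg2. Of 5 tested mural cell markers 2 were lower and 0 higher, and Rgs5, which defines pericytes, was at or below 10.7 in every library. The sum of the 6 listed mural markers was 5144 to 5894 in control and 2986 to 4341 in knockout cells. Cspg4, the most abundant of them, stood at 4369 to 4993 and 2627 to 2849. The part of such cells in the level of Gjc1 and Panx1 was not tested.

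**Figure D2:**
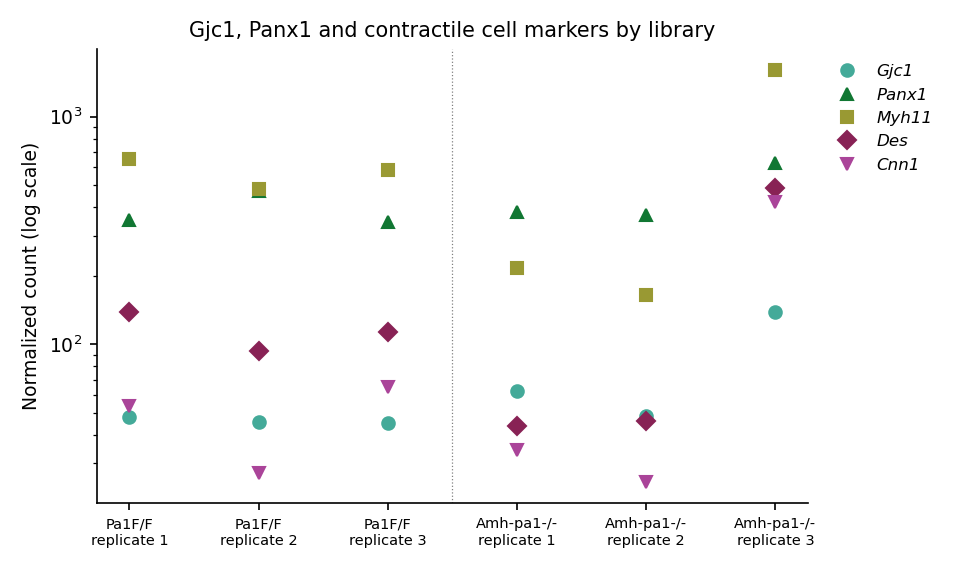
Normalized counts (vertical axis, log scale) of Gjc1, Panx1 and the contractile cell markers Myh11, Des and Cnn1 in each library, with the controls left of the dotted line. All 5 genes have their highest value in Amh-pa1-/- replicate 3, where Gjc1 is at 138 and Myh11 at 1605.

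Gja5 and Gja4 encode connexin40 and connexin37, the connexins of the artery wall and the endothelium. Gja5 had 7, 9 and 11 counts in the control and 16, 15 and 8 in the knockout libraries, with overlapping groups and a log2 fold change of 0.61 (SE 0.40, edgeR adjusted p = 0.282). Genes on the opposite strand, Gpr89 among them, lie within or across its ends (chr3:96904693-97077416), and the counting is not stated to use strand, so its few reads are uncertain. Gja4 had 1, 5 and 2 counts in control and 3, 4 and 3 in knockout cells, with at most 5 counts in any library. Endothelial markers stood at very different levels, with Emcn at or below 3.15 normalized counts in every library, Egfl7 at or below 6.29 and Pecam1 at 37.2 to 78.4 in control and 13 to 20.3 in knockout cells. Cdh5, VE-cadherin, was the most abundant of them, at 1565 to 1599 in control and 811 to 967 in knockout cells. Kdr stood at 485 in Amh-pa1-/- replicate 3 and at 62.5 to 99.7 in the other libraries. Of 6 tested endothelial markers 3 were lower and 1, Vwf, higher, but Vwf passed the filter only through the knockout group. The 10 listed markers summed to 2298 to 2463 in control and 1264 to 1959 in knockout cells. Their part in the level of Gja4 and Gja5 was not tested.

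Gjb5 (chr4:127354809-127358181, minus strand), connexin31.1 of epithelia and placenta, had 1, 0 and 0 counts in the control and 6, 3 and 4 in the knockout libraries. The groups did not overlap, but 1 of the knockout libraries was at the floor. Summed over libraries, 1 against 13 counts gave a knockout over control ratio of 13.8 with an exact 95% interval from 2.07 to 587 (counting error only). Of 6 tested mesothelial markers 4 were higher in the same libraries, beside 18.2% of all tested genes. Upk3b, Krt19 and Muc16 among them passed the filter only through the knockout group, so the count is a description. Upk3b stood at 4.84 to 14.7 in control and 230.4 to 339 in knockout cells, and Krt19 at 0.968 to 2.72 and 51.7 to 59.7. The 7 listed summed to 106 to 178 in control and 458 to 588 in knockout cells, while Msln, mesothelin, overlapped between the groups and Krt7 was at or below 1 in every library. Of the 4 listed stratified epithelial markers Epcam, an adhesion gene, was the 1 tested, and it was higher, at 261 to 304 in control and 426 to 435 in knockout cells. The part of these cells in the level of Gjb5 was not tested.

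Of the 13 other family genes listed, 5 were tested, and 3 of them were higher and 0 lower, beside 18.2% and 17.1% of all tested genes. Gjc3 is counted among the higher genes, although it passed the filter only through the knockout group. The count of higher genes was 1 without Pa1F/F replicate 3 or Amh-pa1-/- replicate 1 or 2, and 5 without both libraries that stood apart. Gjc3, the connexin29 gene of myelinating glia, had 3, 0 and 3 counts in the control and 21, 22 and 21 in the knockout libraries. All controls lay at or under the floor, and the summed counts gave a knockout over control ratio of 11.3 (exact interval 4.93 to 32, counting error only). Its edgeR adjusted p of 0.00474 is likewise given as a description, and with no filter on low counts it was 0.0015. Gja6, connexin33, a connexin known from the testis, stood at 8.16, 6.78 and 14.7 normalized counts in the control and at 29.3, 40.6 and 13 in the knockout libraries. It overlapped through replicate 3 of each group (log2 fold change 1.48, edgeR adjusted p = 0.0584). It too met the minimum count only through the knockout group, so these p-values are a description. The adjusted p was under the threshold without Amh-pa1-/- replicate 3 (1.82, edgeR adjusted p = 0.00813), without both libraries that stood apart (1.61, 0.00104), with DESeq2's Wald test (0.0478) and with no filter on low counts (0.0447). It shares its position and strand with another gene, so its reads are uncertain. Of the 8 listed genes with at most 5 counts in any library, Panx2 had 5, 1 and 3 counts in the control and 1, 1 and 0 in the knockout libraries, and Gjd4 had 5, 0 and 0 against 0, 0 and 2.

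**Figure D3:**
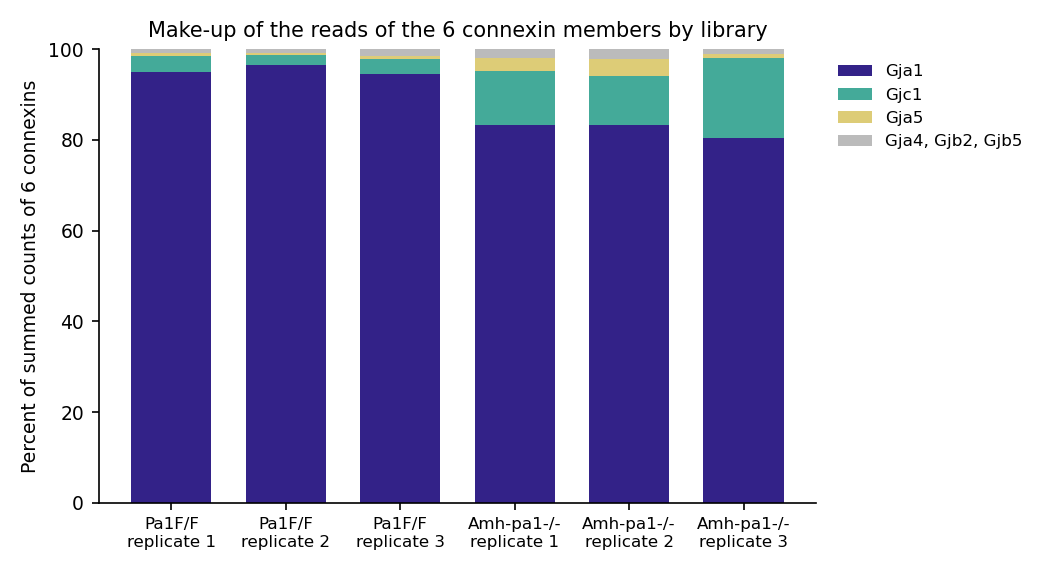
Percent of the counts of the 6 connexin members (vertical axis) that fell on Gja1, Gjc1, Gja5 and the 3 others in each library (horizontal axis). Gja1 takes 94.6% to 96.5% in the controls and 80.4% to 83.4% in the knockout libraries, and Gjc1 takes up to 17.6% in the latter.

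A share within the connexins is free of library scaling. Of the summed counts of the 6 connexin members, Gja1 took 94.9%, 96.5% and 94.6% in the control and 83.3%, 83.4% and 80.4% in the knockout libraries. The groups lay far apart beside their spread, 95.3% ± 1.02 against 82.3% ± 1.7 (SD, n = 3 each), a difference of -13 points. The exact two-sided permutation test gave p = 0.1, the smallest that 3 against 3 libraries allow. Among the other members the share of Gjc1 rose most, from a mean of 3.02% to 13.4%, with 17.6% in Amh-pa1-/- replicate 3. Shares of 1 sum depend on each other, so less Gja1 raises the other shares even where their levels stay the same. In Amh-pa1-/- replicate 2 the share of Gjc1 was 10.7%, at a level of 48.4 normalized counts. Gjc1 stood at 48, 45.5 and 45.1 in the control libraries and at 62.5 and 138 in Amh-pa1-/- replicates 1 and 3. The change in its level did not pass the test (edgeR adjusted p = 0.138).

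With all 17 listed connexin genes in the sum, Gja1 took 84.5% (Wilson 95% interval 82.7 to 86.2), 85.3% (83.9 to 86.7) and 86.6% (84.7 to 88.2) in the control libraries. It took 36.1% (33.5 to 38.8), 33.1% (30.2 to 36) and 55.8% (52.9 to 58.7) in the knockout libraries, a difference of -43.8 points (exact permutation p = 0.1). Amh-pa1-/- replicate 3 lay closest to the controls. The intervals cover counting error only, and reads without molecular identifiers are not independent molecules.

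Summed over the 6 members, connexin RNA stood at 1292, 2088 and 1429.5 normalized counts in the control and at 525, 454 and 787 in the knockout libraries. The groups did not overlap, and the log2 difference was -1.45 (exact permutation p = 0.1). Without Gja1 the 5 other members summed to 66.1, 73.6 and 77.6 against 87.9, 75.5 and 154, which overlap (0.48, exact permutation p = 0.2). The sums over all 17 listed connexin genes differed from these. They stood at 1451, 2362 and 1562 in the control and at 1210.4, 1145 and 1133 in the knockout libraries, a log2 difference of -0.59 (exact permutation p = 0.1). Without Gja1 the 16 genes left summed to 225, 347 and 209.8 in the control and to 773, 766 and 501 in the knockout libraries, with no overlap and a log2 difference of 1.39 (exact permutation p = 0.1).

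Levels of different genes were compared per kb of transcript, as normalized counts divided by the length of the Ensembl canonical transcript. In control cells Gja1 led the members with 326 ± 90.2 per kb (SD, n = 3), followed by Panx1 with 67.9 ± 12.5, Gjc1 with 8.2 ± 0.281 and Gjb2 with 5.67 ± 1.75, and none of these overlapped with the next. Gja5 followed with 2.83 ± 0.831 and overlapped with Gja4 at 1.53 ± 1.18, and Gjb5 came last with 0.173 ± 0.299. In knockout cells Gja1 with 103 ± 28.3 and Panx1 with 80.2 ± 25.3 overlapped between libraries, although Gja1 was the higher in each library. Gjc1 followed with 14.7 ± 8.57, then Gja5 with 4.32 ± 1.53, Gjb5 with 2.53 ± 0.737 and Gja4 with 2.04 ± 0.522. Gja5 overlapped with Gjb5, and Gjb5 with Gja4. Gjb2 was the lowest with 0.553 ± 0.286, from counts at or under the floor.

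**Figure D4:**
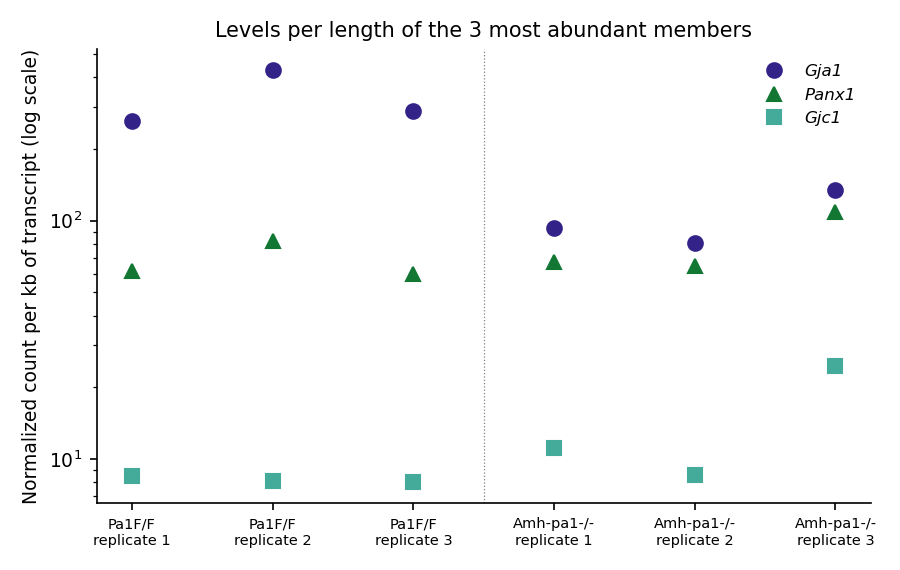
Normalized count per kb of transcript (vertical axis, log scale) of Gja1, Panx1 and Gjc1, the 3 members with the highest levels, in each library, with the controls left of the dotted line. Gja1 is the highest of them in every library, and its distance to Panx1 is smaller in the knockout libraries than in the controls.

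The genes with the pattern most like that of Gja1 over the 6 libraries were named by the smallest root mean square distance between log2 CPM values centred on each gene, among 11718 tested genes averaging 50 or more normalized counts. They were Emilin1, an elastic fibre glycoprotein gene (distance 0.0712), Matn2, a matrix protein gene (0.138), Arhgap31, a GTPase regulator gene (0.139), Slc7a8, an amino acid transporter gene (0.157), and Adora1, the adenosine A1 receptor gene (0.164). The median distance over all genes compared was 0.905. All 5 had their highest control value in Pa1F/F replicate 2 and their highest knockout value in Amh-pa1-/- replicate 3, as Gja1 did.

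Connexin and pannexin channels release ATP, which P2X and P2Y receptors sense, and ectonucleotidases cut it down to adenosine. Of 25 listed genes of this group 15 were tested, 8 of them lower and 0 higher, with a median log2 fold change of -1.19. Over all tested genes 17.1% were lower and 18.2% higher. All 8 fell by at least 2-fold, as did 6.56% of all tested genes. Without both libraries that stood apart 9 were lower and 2 higher. With at least 10 counts in every library 6 were lower, with close replicates summed 4, and in the test against 2-fold 2. P2rx2, an ATP-gated ion channel gene, stood at 206, 157 and 158 normalized counts in the control and at 36.1, 40.6 and 47.1 in the knockout libraries (log2 fold change -2.07, SE 0.18, edgeR adjusted p = 0.000493). Enpp1, an enzyme gene that makes AMP and pyrophosphate from ATP, stood at 4016, 3208 and 3833 against 1191, 1257 and 954 (-1.70, SE 0.13, edgeR adjusted p = 0.000277). Neither gene overlapped between the groups. Adora1 was lower as well (-1.51, edgeR adjusted p = 0.00498), and so was the related enzyme gene Enpp3 (-1.21, edgeR adjusted p = 0.00956). Most tested macrophage and Leydig cell markers given above were lower in the same libraries, 6 of 8 (median log2 fold change -2.58) and 3 of 3 (-1.99). Some of the macrophage markers passed the filter only through the control group, and Mrc1 was not lower. The part of such cells in the levels of the ATP receptor and ectonucleotidase genes was not tested.

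Partners that hold connexins in the membrane, carry them there or modify them made up 28 tested genes, of which 10 were higher and 2 lower, with a median log2 fold change of 0.08. Over all tested genes 18.2% were higher and 17.1% lower, or 35.3% in either direction. The count of lower genes rested on the libraries, with 5 without Amh-pa1-/- replicate 3, 7 without both libraries that stood apart, 1 without Pa1F/F replicate 2 and 0 without any 1 of the other libraries. With close replicates summed 4 were higher and 0 lower, against 2-fold 1 and 0, and with the replicate number as a block 7 and 0. Cav1, caveolin1 of membrane pits, stood at 969.6, 962 and 1080.3 normalized counts in the control and at 3335, 3071 and 2497 in the knockout libraries (log2 fold change 1.56, SE 0.11, edgeR adjusted p = 0.000248). Pkp2 and Dsp, desmosome plaque genes, rose by 1.24 (edgeR adjusted p = 0.000644) and 1.18 (0.000208) on the log2 scale. Cav2 was higher by 0.70 (edgeR adjusted p = 0.0242), but not past the test without Pa1F/F replicate 1 or 2 or without Amh-pa1-/- replicate 1 or 2 (0.0704 to 0.0847). The lower genes were the kinase gene Prkca (-0.57, edgeR adjusted p = 0.0449) and the ubiquitin ligase gene Nedd4 (-0.23, edgeR adjusted p = 0.0325). Prkca lost its call without any of the libraries but Amh-pa1-/- replicate 3 (0.0818 to 0.14), and Nedd4 without Pa1F/F replicate 1 or 3 or Amh-pa1-/- replicate 1 or 2 (0.0866 to 0.112). Of 7 tested genes of other large-pore channels, Lrrc8c, a subunit of volume-regulated anion channels, was the 1 that passed (0.78, edgeR adjusted p = 0.00503), and the list's median was 0.05.

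**Figure D5:**
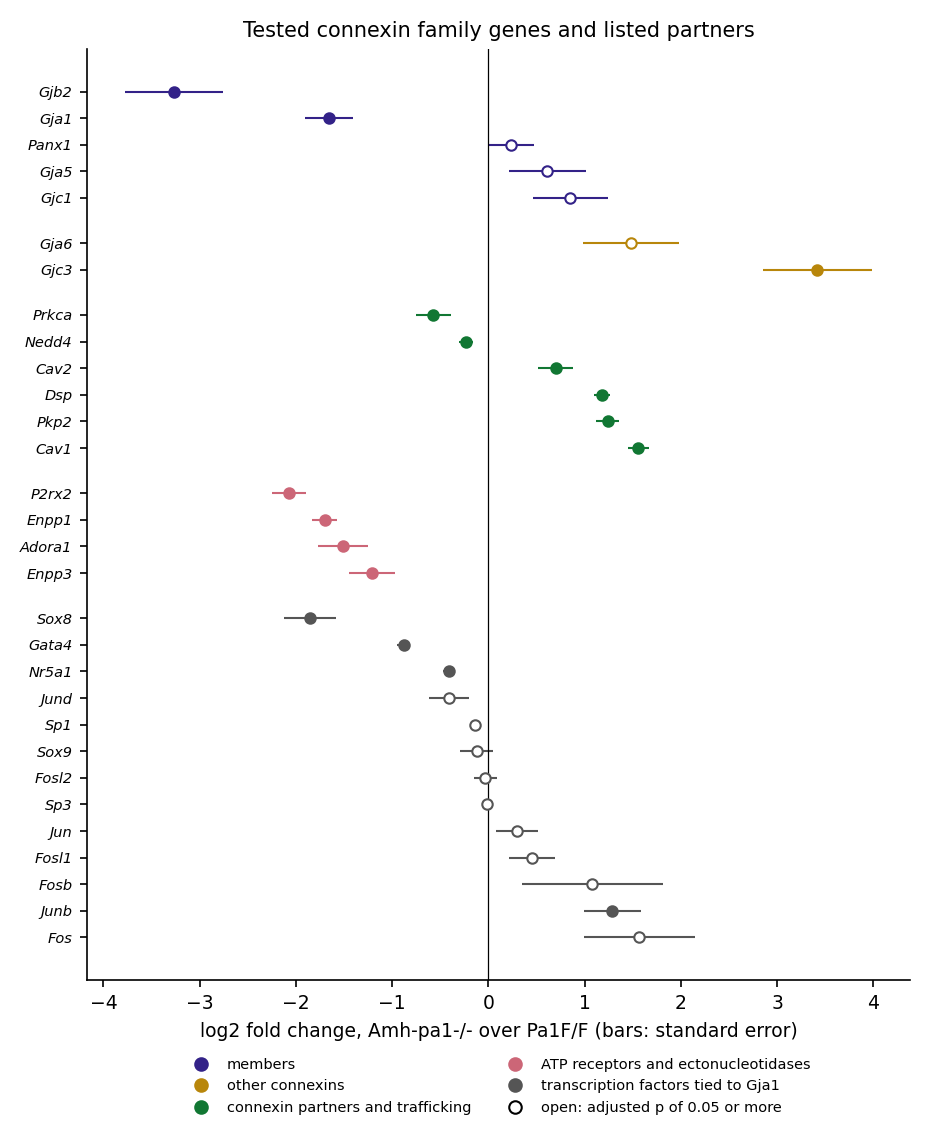
Log2 fold change of Amh-pa1-/- over Pa1F/F (horizontal axis, bars are standard errors) for the tested members, the connexins Gja6 and Gjc3 and the genes named from the lists of partners, ATP receptors and ectonucleotidases, and transcription factors, with filled points at an edgeR adjusted p under 0.05. Partners and ATP genes are shown only where they passed the test, and the named ATP genes all lie left of 0, between -2.07 for P2rx2 and -1.21 for Enpp3.

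A list of 13 AP-1, SOX, SP, GATA and SF1 transcription factor genes, which does not hold every factor tied to Gja1, had all its genes tested, with 3 lower, 1 higher and a median log2 fold change of -0.03. Over all tested genes 17.1% were lower and 18.2% higher. Without Amh-pa1-/- replicate 3 the list had 5 lower and 3 higher genes, and without both libraries that stood apart 7 and 3. The count of higher genes was 0 without Pa1F/F replicate 1 or 3 and 2 without Amh-pa1-/- replicate 1. Sox8, a Sertoli cell factor gene related to Sox9, stood at 1734, 1619 and 1750.5 normalized counts in the control and at 358, 350.4 and 706 in the knockout libraries (log2 fold change -1.85, SE 0.27, edgeR adjusted p = 0.00294). Gata4 fell by 0.88 (edgeR adjusted p = 0.000325) and Nr5a1, the SF1 gene, by 0.41 (0.00374) on the log2 scale. Groups did not overlap for any of these 3 genes, while Sox9 itself was at -0.12 (edgeR adjusted p = 0.613).

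Of the AP-1 genes, whose letters stand in the Gja1 window shown above, Junb was the 1 that passed. It stood at 1275, 1667 and 1181 normalized counts in the control and at 2588, 2468 and 5045 in the knockout libraries (log2 fold change 1.29, SE 0.30, edgeR adjusted p = 0.0155). Without Pa1F/F replicate 1 or 3 its adjusted p was 0.061 or 0.0626. Jun stood at 1997, 2176 and 1947 in the control and at 2019.6, 1976 and 3515 in the knockout libraries, with a log2 fold change of 0.30 (SE 0.22, edgeR adjusted p = 0.337) and of -0.03 without Amh-pa1-/- replicate 3. The remaining AP-1 genes were at 1.57 for Fos, 1.08 for Fosb, 0.45 for Fosl1, -0.03 for Fosl2 and -0.41 for Jund, none past the test with all libraries and the filter used. With no filter on low counts Fos passed (1.60, edgeR adjusted p = 0.0248), as it did without Amh-pa1-/- replicate 1 (1.92, 0.0483). Fos changed to 0.51 without Amh-pa1-/- replicate 3 and then passed (edgeR adjusted p = 0.00109), as did Fosl1 at 0.66 (0.0134) and Jund at -0.62 (0.0219). Fosb turned to -0.41 without that library (edgeR adjusted p = 0.0695) and to -0.47 without both libraries that stood apart (0.00132). Sp1 and Sp3, whose proteins bind GC boxes, were at -0.14 (edgeR adjusted p = 0.0531) and -0.01 (0.95). Sp1 passed with DESeq2 size factors (edgeR adjusted p = 0.0462) and with at least 10 counts in every library (0.0388). It also passed without Amh-pa1-/- replicate 3 (0.0442) and without both libraries that stood apart (0.0192).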

How the data were processed

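RNA-seq of 6 libraries was analysed, with genotype and replicate taken from the labels. Per the methods and the submitters' processing notes, reads were aligned to GRCm38 with HISAT2 2.1.0 and counted per gene with HTSeq 0.6.0, and the authors deposited the counts without normalization. The strand setting is not given in the sources used here. The table also holds the authors' own fold changes, p-values and gene annotation, which were not used, apart from names and coordinates. The columns are the 3 libraries of each genotype.

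Genes were filtered with filterByExpr (minimum count 10, minimum total 15), TMM-normalized and compared by edgeR's quasi-likelihood F-test (edgeR 4.0.16, R 4.3.3), which replaced the study's DEGseq because it uses the spread between replicates. Benjamini-Hochberg adjustment ran over 14919 genes. The SE is the log2 fold change divided by the square root of F. Shares and sums were compared by an exact two-sided permutation test. On simulated counts with a log2 fold change of 2 in 200 of 14895 tested genes, 100% were recovered and 0.99% of calls were false. The simulation gave all genes the same dispersion and held no library that stood apart. Its calls also required a change of at least 2-fold, so it does not measure the error rate of the calls made here. Transcript lengths came from the GENCODE annotation of GRCm39, promoters from RefSeq on GRCm38.p6.

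The members, 5 gene lists and 11 marker lists were chosen with earlier results of these data known. The text names the 7 members, other family genes above 3 counts in a library apart from some that are not reported here, from each other list up to 4 genes lowest and 4 highest past the test that average 50 or more normalized counts, and all transcription factor genes listed. Marker genes were named where they define a cell type or move with a member. Of the germ cell markers, 2 of 4 tested spermatogonial genes were lower, Ddx4 among them, which passed the filter only through the control group. The 8 listed summed to 2835 to 3243 normalized counts in control and 1651 to 2962 in knockout cells, nearly all of them Uchl1. Of the spermatocyte genes 0 of 2 tested passed the test, and the 3 listed spermatid genes stayed at or below 2.25. Alternatives were DESeq2 1.42.0 and limma-voom 3.58.1, other scalings and filters, the replicate number as a block, a test against 2-fold, libraries left out and close replicates summed.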

Additional observations from a re-analysis of the deposited data

How the results depend on the processing

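Gja1 stayed lower and past the test under every alternative run but the test against 2-fold, where the log2 fold change is still -1.66 and the adjusted p 0.099. Leaving out each library gave -1.90 to -1.42. Gja4 and Gjb5 had too few counts for a test. The number of members past the test was 2, and 1 with at least 10 counts in every library, against 2-fold, or without both libraries that stood apart, and leaving out each library gave 1 to 2. The missing call is Gja1 in the test against 2-fold and otherwise Gjb2, which was then not tested. The Gja1 share moved from -13 to -43.8 points with all listed connexins in the sum and to -11.4 without both libraries that stood apart, an alternative chosen after seeing the data. Summed connexins turned from -1.45 to 0.48 on the log2 scale once Gja1 was left out.

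Signs turned in genes that were not past the test with all libraries. Without Amh-pa1-/- replicate 3 Panx1 was at -0.05, Jun at -0.03, Sox9 at 0.06 and Fosb at -0.41, and Fosb was at -0.47 without both libraries that stood apart, where it passed as lower (adjusted p = 0.00132). Fosl2 was at 0.04 without Pa1F/F replicate 2, 0.03 without Amh-pa1-/- replicate 1, 0.06 without Amh-pa1-/- replicate 2 and 0.02 with close replicates summed. Sp3 was at 0.02 without a filter, 0.04 without Pa1F/F replicate 1, 0.01 without Amh-pa1-/- replicate 2 and 0.03 with close replicates summed. Leaving out each library gave -0.05 to 0.40 for Panx1, -0.03 to 0.46 for Jun, -0.22 to 0.06 for Sox9, -0.41 to 1.52 for Fosb, -0.18 to 0.06 for Fosl2 and -0.05 to 0.04 for Sp3. The cause was not tested.

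Replicate numbers did not pair the libraries, since same-numbered libraries correlated at 0.108, -0.164 and -0.179 in their deviations. With the replicate number as a block, Gja1 was at -1.66 (adjusted p = 0.0158), and 3802 in place of 5266 genes passed. That count was 538 against 2-fold, 8266 without both libraries that stood apart, 1382 with close replicates summed and 3450 without Pa1F/F replicate 1. With close replicates summed, named genes that lost their call were Gjc3 (adjusted p = 0.0643), Adora1 (0.0653), Enpp3 (0.0856), Sox8 (0.0573), Nr5a1 (0.0734), Junb (0.0848), Lrrc8c (0.0741), Cav2 (0.146), Prkca and Nedd4 (0.27 each), and the count of higher genes among the other connexins went from 3 to 0. In that setting 4 of the ATP receptor and ectonucleotidase genes were lower, and 2 in the test against 2-fold, in place of 8. Depth limits Gja4, Gja5, Gjb2 and Gjb5, which had at most 18 counts in a library.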
